A study of Mus musculus with 26 samples.

Results

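The comparison sets the spleens of mice given ovalbumin, in the libraries coded ON, against the spleens of mice given saline. Its members are 10 of the 26 libraries of the series, chosen by their labels. ON 1 to ON 5 carry the ovalbumin treatment and CT 1 to CT 5 the saline treatment. Ovalbumin (OVA) is the main protein of egg white and is used as a model allergen. All mice were female BALB/c, 8 weeks old and 18 to 22 g, with 20 mice per group. Each mouse received an injection into the peritoneum on days 1, 3 and 5, of saline or of OVA at 0.05 mg per day. The other 16 libraries were 6 coded OS, with OVA as their stated treatment too, and 10 from mice that also received a microRNA mimic, which entered the fit but no comparison made here. The labels do not say what the codes mean, nor whether each library came from its own mouse, so the p-values measure only the spread between these libraries, which may be technical.

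The spleen filters blood and hosts immune responses to antigens that reach the circulation. Its white pulp holds B and T lymphocytes, and its red pulp holds macrophages that clear old red cells and, in mice, a reserve of erythroid and platelet precursors. Ribosomal proteins, mitochondrial respiratory subunits and proteasome subunits are made in nearly every cell from small, abundant messages. Allergens given with or without adjuvant are known for drawing type 2 cytokines, plasma cell formation and granulocytes, and the genes of these responses were listed beside the housekeeping complexes.

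Spleen markers were present in all 10 libraries. The summed level of 5 B-cell markers was 503.7 to 958 FPKM (fragments scaled by gene length and library size) under saline and 489.6 to 827 in ON, and that of 5 red pulp macrophage markers was 411 to 606 FPKM over both groups. The spleen-specifying transcription factor Tlx1 was at 4.12 to 22.3 FPKM, and Nkx2-5, another such factor, was at 0 in CT 4 and at 4.14 to 6.94 in the other 9 libraries. Recovered reads numbered 14581525 to 18113989 per library in ON and 14540369 to 16698715 under saline. In each library a single read on 1 kilobase was worth 0.0520 to 0.0899 FPKM. Libraries within a group were not equally far apart. By chi-square per degree of freedom on recovered reads, ON 4 and ON 5 differed by 7.21, and CT 2, CT 3 and CT 5 by 8.32 to 12.7. All other pairs within a group differed by 33.1 to 208.7. Why some were close was not tested.

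ON 2, ON 3 and CT 4 stood apart from the other libraries compared. The tail of the pancreas lies against the spleen, and pancreatic genes held 31.3% of the reads of ON 2 (95% Wilson interval 31.28% to 31.32%) and 4.79% in ON 3 (4.78% to 4.80%), against 0.00248% to 0.00335% under saline, intervals that cover counting error only. Saline library CT 4 had 6.62% of its reads on mitochondrially encoded genes, against 1.44% to 1.81% in the other saline libraries. The main results are given with and without these 3 libraries. MM 2, a library with OVA and the mimic that entered only the fit, had 15.9% of its reads on pancreatic genes. It stayed in the fits without these 3 libraries and so added to their estimate of the spread. The summed level of 7 exocrine pancreas markers was 155973 FPKM in ON 2 and 17163 in ON 3, and at most 0.627 in the other 8 libraries. Among 5 fat markers the sum was 1.27 to 16.3 FPKM under saline and 1.11 to 8.93 in ON. In bulk tissue, fewer cells of a type and less RNA per cell cannot be told apart.

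In the ON spleens the genes that fell included 6 of the ribosome, 5 nuclear genes of the respiratory chain and 2 of mitochondrial import, and few genes rose. Of 15672 genes tested, 80 passed limma at an adjusted p of 0.05 (0.510% of genes), 7 of them higher (0.0447%) and 73 lower (0.466%). By the deposited biotypes the 73 that fell were 33 protein-coding genes (3 of them predicted genes or copies by symbol), 38 pseudogenes and 2 noncoding RNAs, and 50 of the 73 had a log2 difference of -1 or below. None of the 7 that rose reached 1, and 2 of the 7 were pseudogenes. All 5 ON libraries lay below all 5 saline libraries in 531 genes (3.39% of those tested), and above them in 187 (1.19%). At an unadjusted p under 0.05 there were 1327 lower and 809 higher genes, and the median log2 difference of all genes was 0.01. Here and below, a log2 difference is ON minus saline on the log2(FPKM + 1) scale with its standard error, which understates the change of genes near 1 FPKM. Without ON 2 and ON 3 the calls were 13, all lower, and without ON 2, ON 3 and CT 4 they were 16, all lower, of which 14 were among the 80. When 1 library was left out, the count was 30 for CT 1, 50 for CT 3, 38 for CT 5, 36 for ON 1, 37 for ON 2 and 27 for ON 3. With CT 5 or ON 3 left out, 0 of the calls were higher.

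Ribosomal protein genes made up 6 of the 33 protein-coding falls and lay below saline nearly throughout. Among the 88 cytosolic ribosomal protein genes tested, limma called 6 lower, 0 higher and left 82 uncalled, with a median log2 difference of -0.69 against 0.01 over all genes. In 85 of the 88 the difference was below 0, and in 50 all 5 ON libraries lay below all 5 saline libraries. The list's genes took 5.90% to 7.84% of reads under saline and 3.96% to 4.51% in the ON libraries other than ON 2. In ON 2 they took 2.79%, where 31.3% of all reads were on pancreatic genes. Without ON 2, ON 3 and CT 4 the median was -0.57, and 0 of the 88 passed limma, where 1252 of all genes had an unadjusted p under 0.05. The list mean, relative to the saline mean on the log2 scale, was -0.84, -0.74, -0.72, -0.53 and -0.57 in ON 1 to ON 5, and 0.29, -0.20, -0.15, 0.09 and -0.03 in CT 1 to CT 5. On this mean every ON library lay below every saline library, including ON 1, ON 4 and ON 5, where pancreatic reads were at the saline level. The part of the pancreatic reads in these falls was not tested.

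Rpl38, a protein of the large ribosomal subunit (ENSMUSG00000057322, chromosome 11, 114559350 to 114563157 on the + strand, in the deposited table's coordinates), had the largest fall of the 6. Its level was 1398, 775, 841, 628 and 834 FPKM in CT 1 to CT 5, and 225, 202, 223, 309.8 and 294 in ON 1 to ON 5. ON 4, the highest ON library, was below CT 4, the lowest saline library. The log2 difference was -1.80 ± 0.40 (limma adjusted p = 0.0415). Rpl36, also of the large subunit, stood at 1916, 1411, 1459.8, 1272 and 1505 FPKM under saline and at 567, 547, 557, 836 and 830.3 in ON. ON 4 and ON 5 were the highest of the ON libraries for both genes, and the groups did not overlap. The log2 difference of Rpl36 was -1.19 ± 0.27 (adjusted p = 0.0448). Rpl32, another large-subunit protein, stood at 892, 831, 797, 1561 and 853 FPKM under saline and at 454, 419.9, 442, 541 and 551 in ON. CT 4 was far above the other saline libraries, which still lay above every ON library. It differed by -0.99 ± 0.18 (adjusted p = 0.0111), and the call held without each of the 10 libraries in turn, with an adjusted p of at most 0.0442, but ended without ON 2, ON 3 and CT 4 (-0.71, adjusted p = 0.209).

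The other 3 ribosomal protein genes that fell also belong to the large subunit. Rpl35a had 18.2 ± 6.70 FPKM under saline and 6.16 ± 2.53 in ON (mean ± SD, n = 5 each), and CT 2, at 9.39, lay below ON 4, at 9.93. Its log2 difference was -1.41 ± 0.27 (adjusted p = 0.0140). Rpl23 had 434 ± 128 and 192 ± 23.9 FPKM, and Rpl37 had 299 ± 40.6 and 141 ± 17.8, with no overlap between the groups in either gene. Their log2 differences were -1.14 ± 0.25 and -1.08 ± 0.21 (adjusted p = 0.0371 and 0.0140). Rplp1, an acidic stalk protein and the most abundant of the list, had 3637 ± 1257 and 2056 ± 456 FPKM and did not pass (-0.78 ± 0.36, adjusted p = 0.333). Rps15, of the small subunit, had 1598 ± 346 and 849 ± 229 FPKM, did not overlap between the groups, and did not pass either (-0.93 ± 0.34, adjusted p = 0.197). Apart from that of Rpl32, the calls of these genes ended when certain single libraries were left out. Rpl38 and Rpl36 ended without CT 1, CT 2, CT 3, CT 5, ON 1, ON 2, ON 3 or ON 5 (adjusted p at most 0.134 each), Rpl23 without CT 1, CT 4, CT 5, ON 1, ON 2, ON 3 or ON 5 (at most 0.120), Rpl35a without CT 1, ON 1 or ON 3 (at most 0.0741) and Rpl37 without CT 1 or ON 1 (at most 0.0616). Ribosomal protein genes have many processed copies in the genome, and no source used here says how the authors' counting divided reads between near-identical copies, so the level of each gene is uncertain.

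Messages for ribosomal proteins often begin with a run of pyrimidines, the 5′ terminal oligopyrimidine tract that ties their translation to growth signals. The windows from 10 bases before to 20 bases after the annotated start are shown for 4 ribosomal genes that fell, to set those with a long run beside those without, and for a spliceosome and a respiratory gene. They are read 5′ to 3′ from RefSeq on GRCm38.p6, with the longest run of C or T in capitals, and were chosen after the runs were seen.
Rpl38, chr11:114668570-114668599, + strand: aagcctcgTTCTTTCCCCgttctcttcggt
Rpl35a, the second of 3 starts, chr16:33056472-33056501, + strand: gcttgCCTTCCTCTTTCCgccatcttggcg
Rpl23, chr11:97782420-97782449, - strand: gTCCggtcacgtggctgagtgggcggggcc
Rpl37, chr15:5116603-5116632, + strand: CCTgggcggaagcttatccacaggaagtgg
Snrpf, chr10:93589639-93589668, - strand: ggccgcttttgtcggccaTTTCTCTTagcg
Cox5b, chr1:36691477-36691506, + strand: cggggcaggaagcggaagaCTgaccgggcg
The run was 10 bases long in Rpl38, 13 in Rpl35a (4 and 5 at its other starts), 3 in Rpl23 and Rpl37, 8 in Snrpf and 2 in Cox5b. Rpl38, Rpl35a and Snrpf are the 3 genes that fell with a run of at least 8. Such a run stood in this window in 26 of 63 ribosomal protein genes with a RefSeq start (41.3%), in 8 of 64 nuclear respiratory genes (12.5%), in 3 of 26 genes that fell (11.5%) and in 1393 of 10044 genes tested (13.9%). Ribosomal protein genes with the run had a median log2 difference of -0.74 (26 genes) and those without it -0.64 (37 genes). The run depends on the annotated start, as the 3 starts of Rpl35a show, and that of Snrpf began 8 bases after its start. A short run here therefore does not show that a message lacks the tract, nor a long run that it has one. In the 300-base promoters from 250 bases before to 50 after the start, on either strand, the glucocorticoid receptor half-site (AGAACA) was found in 6 of 26 genes that fell, 1 of 4 that rose and 15.0% of all genes with a promoter. The cAMP response element (TGACGTCA) was found in 1, 0 and 3.37%, the AP-1 site (TGACTCA) in 2, 0 and 4.57%, and the E-box (CACGTG) in 3, 1 and 11.5%. A match describes the letters of the window and no more.

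**Figure D1:**
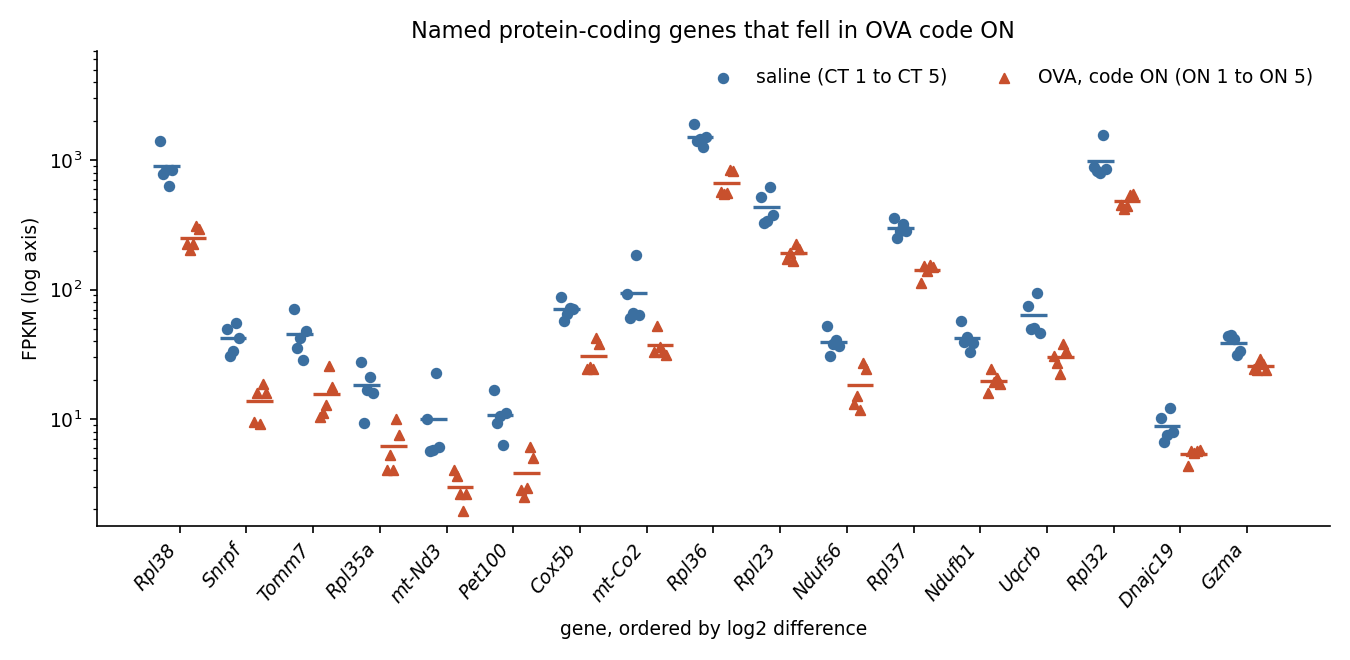
FPKM on a log axis for the 17 named protein-coding genes that fell, ribosomal copies left out, with 1 point per library and a bar at each group's mean, for saline (circles) and OVA code ON (triangles). In 16 of the 17 the groups are separated, and in Rpl35a the lowest saline library lies below the highest ON library.

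Copies of ribosomal protein genes, by symbol, gave 14 of the 73 falls, 12 of them pseudogenes by biotype. Among the 110 tested, 14 passed as lower, 0 as higher and 96 in neither direction, with a median log2 difference of -0.57 and with all ON libraries below all saline libraries in 30. Rps13-ps1, a copy of the small-subunit gene Rps13, stood at 14.7, 11.03, 14.6, 12.6 and 11.1 FPKM in CT 1 to CT 5 and at 5.34, 4.18, 4.95, 6.09 and 4.07 in ON 1 to ON 5. The groups were far apart and each was tight. The log2 difference was -1.22 ± 0.15 (adjusted p = 0.000444), the smallest p of the comparison, and the call held without each library in turn and without ON 2, ON 3 and CT 4 (-1.17, adjusted p = 0.0234). Rpl14-ps1 had 341 ± 137 and 147 ± 21.0 FPKM (-1.14 ± 0.18, adjusted p = 0.00281), Rpl15-ps3 had 10.1 ± 3.23 and 3.27 ± 0.933 (-1.36 ± 0.23, adjusted p = 0.00569) and Rpl36a-ps1 had 4.44 ± 1.41 and 0.810 ± 0.498 (-1.59 ± 0.28, adjusted p = 0.00720). Of these 3, the calls of Rpl14-ps1 and Rpl15-ps3 held without ON 2, ON 3 and CT 4, that of Rpl36a-ps1 did not (adjusted p = 0.109), and that of Rpl15-ps3 ended without ON 2 and ON 3 (adjusted p = 0.103). A read from a parent message can be assigned to a processed copy, so these values and those of the parents are not independent measurements.

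Nuclear genes of oxidative phosphorylation, the respiratory complexes and ATP synthase of mitochondria, gave 5 of the falls. Among the 76 tested, 5 were called lower, 0 higher and 71 were not called, with a median log2 difference of -0.57, and 75 of the 76 were below 0. In 27 of them all ON libraries lay below all saline libraries, and without ON 2, ON 3 and CT 4 the median was -0.56 and 1 passed. The list mean was -0.77, -0.59, -0.73, -0.34 and -0.49 in ON 1 to ON 5 and 0.34, -0.10, -0.07, -0.14 and -0.03 in CT 1 to CT 5. Cox5b, a subunit of cytochrome c oxidase (complex IV), stood at 88.4, 57.4, 65.3, 72.4 and 70.4 FPKM under saline and at 24.3, 25.0, 24.3, 42.6 and 37.8 in ON. ON 4 and ON 5 were again nearest to saline, below its lowest library. ON minus saline was -1.20 ± 0.26 (adjusted p = 0.0348).

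The other 4 that fell were subunits of complex I, complex III and ATP synthase. Ndufb1, an accessory subunit of complex I, stood at 57.2, 39.2, 42.9, 32.8 and 38.7 FPKM under saline and at 15.8, 24.2, 19.4, 20.8 and 18.7 in ON. The groups did not overlap, and the difference of -1.04 ± 0.20 (adjusted p = 0.0135) held as a call without ON 2, ON 3 and CT 4 (-1.22, adjusted p = 0.0470). It ended as a call without ON 2 and ON 3 alone (-1.14, adjusted p = 0.0722). Ndufs6, a complex I subunit, had 39.6 ± 7.78 and 18.2 ± 6.93 FPKM (-1.13 ± 0.26, adjusted p = 0.0487). Uqcrb, a subunit of complex III, had 63.2 ± 20.5 and 30.3 ± 6.04 FPKM (-1.002 ± 0.23, adjusted p = 0.0451), and Atp5l, a subunit of ATP synthase, had means of 19.4 and 10.8 FPKM (-0.77 ± 0.18, adjusted p = 0.0492). Pet100, a chaperone for complex IV assembly that was not on the list, had 10.8 ± 3.82 and 3.86 ± 1.55 FPKM (-1.28 ± 0.29, adjusted p = 0.0415). Cox6a1 and Cox8a, the most abundant members that did not pass, differed by -0.48 ± 0.24 and -0.53 ± 0.27 (adjusted p = 0.390 and 0.394). The call of Cox5b ended without CT 1, CT 3, CT 5, ON 1, ON 2 or ON 3 (adjusted p at most 0.116), that of Ndufb1 without CT 1 (0.0571), that of Ndufs6 without any library but ON 4 and ON 5 (at most 0.147), that of Uqcrb without any but ON 4 (at most 0.136) and that of Pet100 without CT 1, CT 2, CT 3, CT 5, ON 1, ON 2 or ON 3 (at most 0.134).

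Other mitochondrial genes were mixed. Of 23 genes of mitochondrial protein import, Tomm7 and Dnajc19 fell and 21 did not pass (median -0.28). Tomm7, a small subunit of the outer-membrane translocase, stood at 71.3, 35.3, 42.4, 28.7 and 48.1 FPKM under saline and at 10.3, 11.2, 12.9, 25.8 and 17.7 in ON. ON 4 lay just below CT 4, and the other ON libraries lay well below every saline library. The log2 difference was -1.49 ± 0.34 (adjusted p = 0.0465). Dnajc19, a co-chaperone of the inner-membrane import motor, had 8.89 ± 2.29 and 5.37 ± 0.581 FPKM (-0.61 ± 0.14, adjusted p = 0.0448). Timm8b, an intermembrane-space import chaperone, had 54.7 ± 8.41 and 32.3 ± 3.86 FPKM with no overlap and did not pass (-0.74 ± 0.18, adjusted p = 0.0577). Of 80 mitochondrial ribosomal protein genes 0 passed limma, 43 were lower at an unadjusted p under 0.05, and the median was -0.35. Mrpl52, one of them, had 56.5 ± 9.60 and 31.2 ± 3.90 FPKM (-0.83 ± 0.21, adjusted p = 0.0607).

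Of 29 mitochondrially encoded genes 2 fell, with a median of -0.27 that was -0.02 without ON 2, ON 3 and CT 4 and 0.12 without CT 4 alone. mt-Nd3, a complex I subunit, stood at 10.02, 5.62, 5.72, 22.5 and 6.03 FPKM under saline and at 4.04, 3.61, 2.61, 1.94 and 2.62 in ON. CT 4 was the highest library and the groups did not overlap. On the log2 scale ON differed by -1.30 ± 0.27 (adjusted p = 0.0272), or -1.02 without the 3 libraries (adjusted p = 0.156). mt-Co2, a catalytic subunit of complex IV, stood at 92.4, 59.8, 66.4, 184 and 63.5 FPKM under saline and at 32.8, 52.7, 35.8, 32.9 and 31.0 in ON. Again the groups did not overlap, and the difference was -1.20 ± 0.25 (adjusted p = 0.0308). mt-Co1, the most abundant gene of the list, did not pass (-0.15 ± 0.35, adjusted p = 0.903), with 23941 FPKM in CT 4 and 3574 to 6706 in the other 9 libraries. The calls of mt-Nd3 and mt-Co2 both ended without CT 1, ON 3, ON 4 or ON 5, and that of mt-Co2 also without ON 1 (adjusted p at most 0.0904 each). The call of Tomm7 ended without any library but CT 4 and ON 4 (at most 0.145), and that of Dnajc19 without any but CT 2 (at most 0.137).

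Among RNA-processing and protein-turnover genes, Snrpf, a core Sm protein of the spliceosome (ENSMUSG00000020018, chromosome 10, 93418891 to 93425568 on the - strand) fell as well. It stood at 49.6, 30.6, 33.5, 55.3 and 42.0 FPKM under saline and at 9.45, 16.0, 9.14, 18.6 and 15.8 in ON. The highest ON library was well below the lowest saline library. The log2 difference was -1.56 ± 0.31 (adjusted p = 0.0217), and leaving out CT 1, CT 5, ON 1 or ON 3 ended the call (adjusted p at most 0.0904). Of 21 Sm and LSm genes Snrpf alone passed, and the median was -0.41. Lsm4, of the LSm ring, had 71.4 ± 19.6 and 45.1 ± 8.28 FPKM without overlap (-0.63 ± 0.25, adjusted p = 0.253). Of 37 proteasome genes 0 passed limma and 24 were lower at an unadjusted p under 0.05, all 37 were below 0, and the median was -0.34. Of 38 translation factors 0 passed, 13 were lower at an unadjusted p under 0.05, and the median was -0.28, or -0.18 without ON 2, ON 3 and CT 4. Another 13 protein-coding genes fell, Atp5l included and predicted genes and copies left out, with log2 differences of -0.81 to -0.41. Among them were Llph, a nucleolar protein (adjusted p = 0.0102), Hnrnpa1, a splicing regulator (adjusted p = 0.0371), Park7, an oxidative stress sensor (adjusted p = 0.0448), and Denr, which acts in translation reinitiation (adjusted p = 0.0349). These 4 were chosen for mention after their values were seen.

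**Figure D2:**
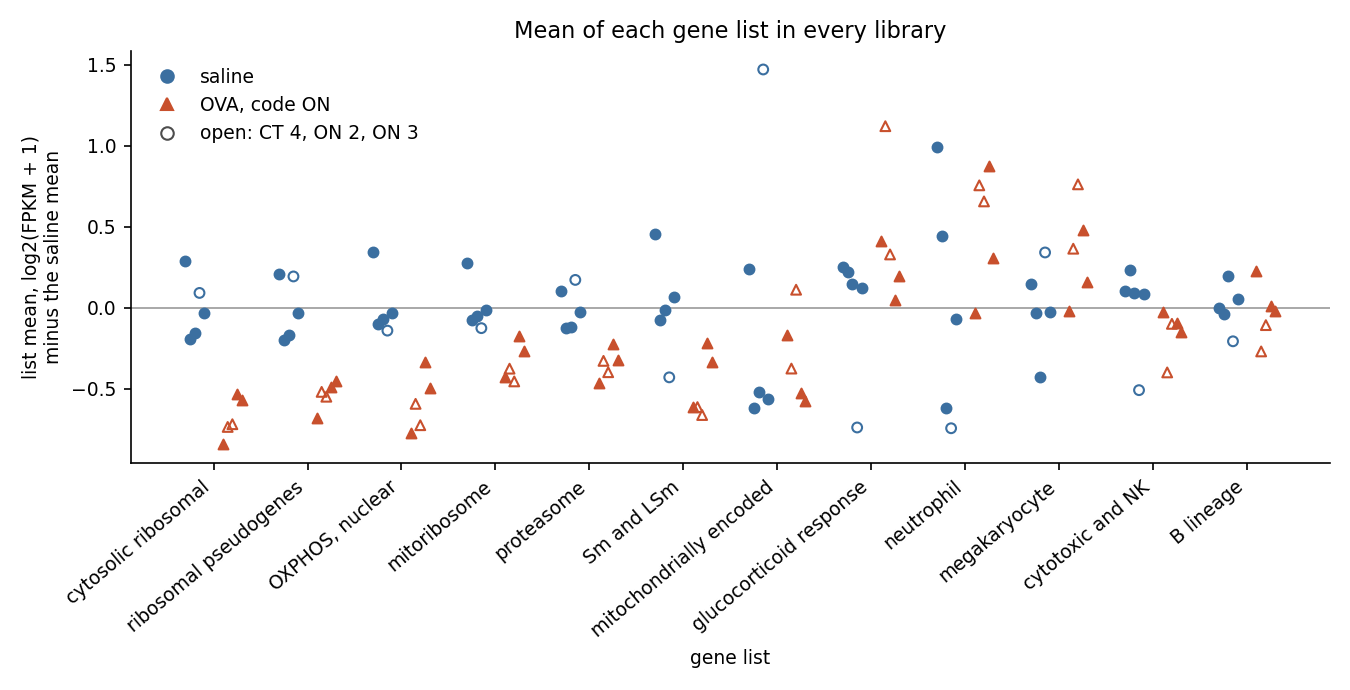
Mean of log2(FPKM + 1) over the tested members of 12 gene lists, minus the saline mean, with 1 point per library for saline (circles) and OVA code ON (triangles) and open symbols for CT 4, ON 2 and ON 3. The ON libraries lie below all saline libraries for the cytosolic ribosomal genes (-0.84 to -0.53), while both groups overlap for the neutrophil, megakaryocyte and B-lineage lists.

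Several measures moved with these falls. Short genes were lower in ON: the median log2 difference of 324 protein-coding genes under 1000 bases, cytosolic ribosomal genes left out, was -0.28, and that of 5033 genes over 5000 bases was 0.07. Of the short genes 8 fell, none rose, and all ON libraries lay below all saline libraries in 35 and above in 0. Over all genes tested, 0.466% fell, and all ON libraries lay below all saline libraries in 3.39% and above in 1.19%. The median gene length was 645 bases in the 73 genes that fell, of which 50 were under 1000 bases, and 4621 in the 7 that rose. It was 3470 over all genes tested. Of the 73, 38 were pseudogenes, so their lengths mix biotypes. Short minus long, by library, was -0.52, -0.48, -0.46, -0.15 and -0.29 in ON 1 to ON 5, and 0.45, 0.05, 0.04, -0.64 and 0.05 in CT 1 to CT 5. CT 4 was the lowest of the 10 on this measure, while its ribosomal list mean, at 0.09, was above the saline mean. Without ON 2, ON 3 and CT 4 the short-gene median was -0.35. Erythroid markers were low in ON 1 and ON 2, with 5-gene sums of 1762 and 2406 FPKM, against 4613 to 10939 under saline and 5075 to 5417 in ON 3 to ON 5. In ON 4 and ON 5 these sums were within the saline range and pancreatic reads were at the saline level. Hbb-bs, a beta-globin gene, was at 18486 and 19286 FPKM in these 2 libraries, below the lowest saline library (20224). Their ribosomal list means were -0.53 and -0.57. The parts of gene length, erythroid RNA and pancreatic reads in the falls were not tested.

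**Figure D3:**
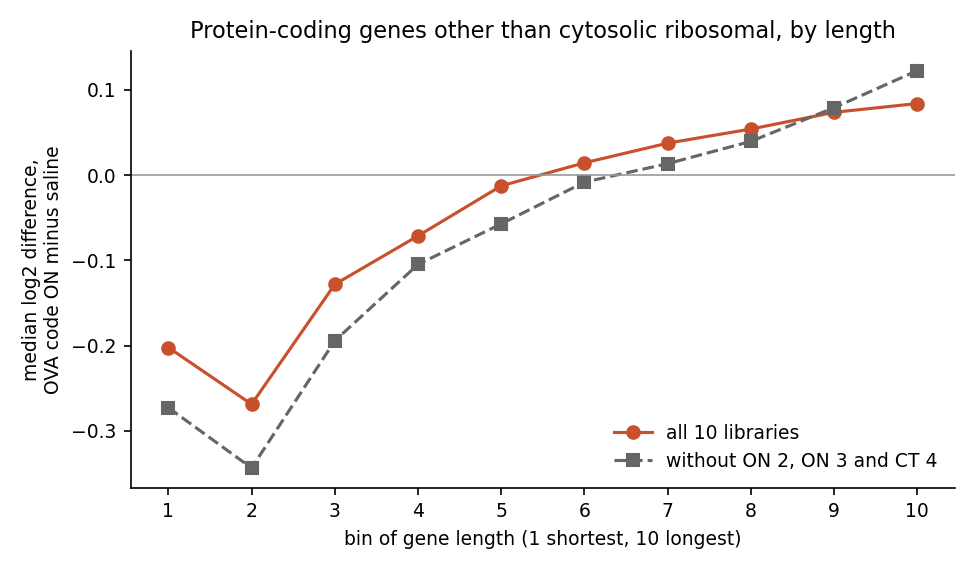
Median log2 difference of ON minus saline (y axis) for protein-coding genes other than cytosolic ribosomal ones, in 10 equal bins of gene length over all tested genes (x axis), with all 10 libraries (solid line) and without ON 2, ON 3 and CT 4 (dashed line). The median goes from -0.27 in bin 2 to 0.08 in bin 10, the longest, and from -0.34 to 0.12 without the 3 libraries.

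The rises were small and fell in 5 protein-coding genes. Tgfb1i1, a focal adhesion protein induced by TGF-beta (also called Hic-5; ENSMUSG00000030782, chromosome 7, 127845984 to 127854871 on the + strand), stood at 4.17, 4.16, 4.64, 3.41 and 4.30 FPKM in CT 1 to CT 5 and at 6.87, 8.58, 7.32, 6.69 and 5.53 in ON 1 to ON 5. The lowest ON library, ON 5, was above the highest saline library. The fitted difference was 0.63 ± 0.14 (adjusted p = 0.0380). Gna13, a G-protein subunit that confines germinal centre B cells (ENSMUSG00000020611, chromosome 11, 109253657 to 109292195 on the + strand), stood at 20.5, 23.3, 21.7, 23.8 and 23.3 FPKM under saline and at 29.4, 34.3, 31.0, 27.0 and 27.3 in ON. The groups did not overlap, with ON 2 highest, and the log2 difference was 0.39 ± 0.09 (adjusted p = 0.0394). Sppl3, an intramembrane protease that acts on glycosyltransferases, had 8.57 ± 1.36 and 12.2 ± 0.956 FPKM (0.47 ± 0.10, adjusted p = 0.0332). Kbtbd2, an adaptor of a ubiquitin ligase, had 14.8 ± 0.473 and 19.7 ± 1.24 FPKM (0.38 ± 0.09, adjusted p = 0.0448). Taf4, a subunit of the general transcription factor TFIID, had 11.7 ± 0.894 and 15.2 ± 1.19 FPKM (0.34 ± 0.07, adjusted p = 0.0247).

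All 5 of these calls ended without ON 2 and ON 3 (adjusted p of 0.187 to 0.376), with log2 differences of 0.30 to 0.52. The calls of Rpl38, Rpl36, Rpl32, Rpl35a, Rpl23, Rpl37, Snrpf, Gzma, mt-Nd3 and mt-Co2, which were lower, ended there too. So did those of Cox5b, Ndufb1, Ndufs6, Uqcrb, Pet100, Tomm7 and Dnajc19. Over these falls the adjusted p was 0.0722 to 0.401 and the log2 difference -1.65 to -0.62. Among the ribosomal copies, the calls of Rps13-ps1 and Rpl14-ps1 held (adjusted p = 0.0130 and 0.0228). The calls of Gna13, Taf4, Kbtbd2, Sppl3 and Tgfb1i1 also ended without ON 3 alone. That of Sppl3 also ended without CT 5, ON 4 or ON 5 (adjusted p at most 0.114). That of Tgfb1i1 ended without any library but ON 5 (at most 0.119), that of Gna13 without any but CT 4, ON 4 and ON 5 (at most 0.122), that of Kbtbd2 without any but CT 4 (at most 0.132) and that of Taf4 without any but CT 1, CT 4 and ON 1 (at most 0.0800). Tgfb1i1 was the single member to pass among 21 matricellular and TGF-beta linked genes (median 0.19), and Gna13 among 13 germinal centre genes (median 0.15).

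**Figure D4:**
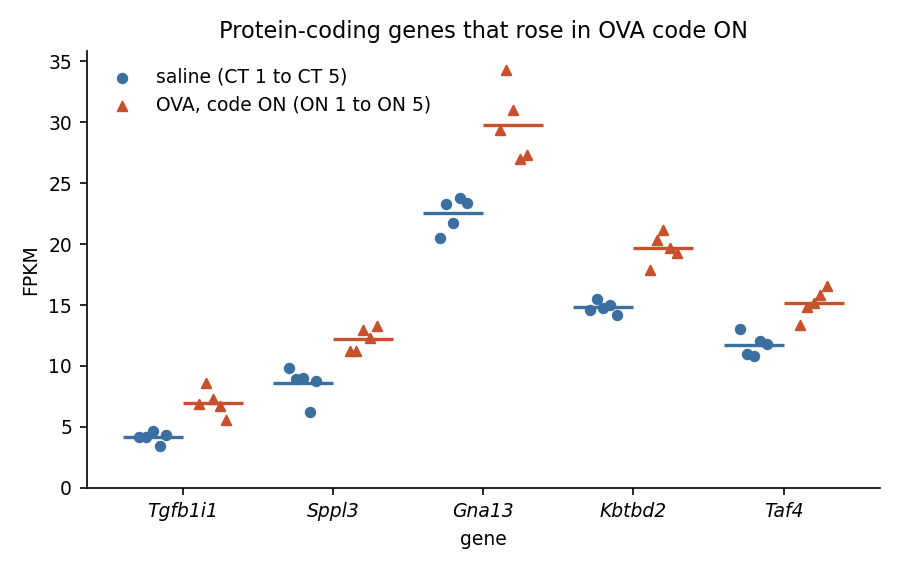
FPKM of the 5 protein-coding genes that rose, with 1 point per library and a bar at each group's mean, for saline (circles) and OVA code ON (triangles), on an axis from 0. In each gene the 5 ON libraries lie above the 5 saline libraries.

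The listed type 2, plasma cell and immunoglobulin constant-region genes did not pass in ON, where 0.510% of all genes tested did. At that share, lists of 13 to 15 genes could hold 0 calls without differing from other genes. By limma, 2136 of all 15672 genes had an unadjusted p under 0.05. Of 15 type 2 response genes tested limma called 0, 1 had an unadjusted p under 0.05, and the median was 0.10, or -0.02 without ON 2, ON 3 and CT 4. Stat6, which carries the signal of interleukin 4, differed by 0.08 ± 0.11 (adjusted p = 0.821). Chil3, a chitinase-like protein of alternatively activated macrophages, stood at 78.4, 24.0, 19.5, 18.7 and 36.8 FPKM under saline and at 43.4, 81.4, 78.8, 83.7 and 72.1 in ON. CT 1 lay among the ON libraries and ON 1 near the saline ones, and the difference of 1.18 ± 0.53 did not pass (adjusted p = 0.319). Of 13 plasma cell genes 0 passed and 2 were higher at an unadjusted p under 0.05 (median 0.13). Jchain, which links antibody multimers, differed by 0.02 ± 0.16 (adjusted p = 0.973), and Xbp1, a secretory transcription factor, by 0.39 ± 0.16 (adjusted p = 0.269). Xbp1 stood at 85.9 FPKM in ON 2 and 55.0 in ON 3, the libraries with pancreatic reads, and at 41.4 to 42.9 in the other ON libraries, within the saline range of 33.8 to 46.5. Among 13 immunoglobulin constant-region genes, with 0 passing and 3 higher at an unadjusted p under 0.05 (median 0.02), Ighm, the mu heavy chain, had 2975 ± 320.4 and 3828 ± 699.9 FPKM (0.35 ± 0.16, adjusted p = 0.327).

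Of 20 cytotoxic and NK genes, Gzma fell and 19 did not pass, with a median of -0.08. Gzma, a granule protease of NK cells and cytotoxic T cells, stood at 43.8, 44.3, 41.8, 31.3 and 33.4 FPKM in CT 1 to CT 5 and at 24.3, 24.0, 28.9, 26.4 and 23.8 in ON 1 to ON 5. ON 3 was the nearest to the saline range, below CT 4. The log2 difference was -0.58 ± 0.14 (adjusted p = 0.0492). The call ended without any library but CT 4 (adjusted p at most 0.143), while the difference was -0.69 without ON 2, ON 3 and CT 4 (adjusted p = 0.129). Nkg7, of the same granules, differed by 0.07 ± 0.16 (adjusted p = 0.911), and Ccl5, a chemokine of these cells, by -0.13 ± 0.35 (adjusted p = 0.919). In the T-lineage list 0 of 24 passed and 3 had an unadjusted p under 0.05, with a median of -0.03, or -0.13 without the 3 libraries, and the T-cell marker sum was 79.8 to 132 FPKM under saline and 73.4 to 132 in ON.

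Neutrophil and platelet genes were above 0 on balance, with no member passing over all libraries. Of 23 neutrophil genes 20 were above 0 with a median of 0.52, or 0.19 without ON 2, ON 3 and CT 4, and 4 were higher at an unadjusted p under 0.05. CT 4 had a list mean of -0.74 and CT 1 one of 0.99. Without the 3 libraries 1 member passed, as lower: Il1b, the inflammatory cytokine interleukin 1 beta (-1.82, adjusted p = 0.0345), which is named after its value was seen. S100a9, a calcium-binding protein of neutrophils, differed by 0.39 ± 0.52 (adjusted p = 0.818). Of 19 megakaryocyte genes 16 were above 0 with a median of 0.38, or 0.35 without the 3 libraries, and 5 were higher at an unadjusted p under 0.05. Ppbp, a platelet chemokine, differed by 0.45 ± 0.26 (adjusted p = 0.483). Of 18 glucocorticoid response genes 0 passed and 6 were higher at an unadjusted p under 0.05. Their median of 0.47 was 0.31 without CT 4 and 0.13 without the 3 libraries, with list means of -0.74 in CT 4 and 1.12 in ON 2. Hbb-bs, a beta-globin gene, stood at 20224 to 32468 FPKM under saline and at 6915 to 19286 in ON, with no overlap and no call (-0.96 ± 0.33, adjusted p = 0.172). Over the 30 erythroid genes 0 passed, 3 were lower at an unadjusted p under 0.05, and the median was -0.15, or 0.05 without the 3 libraries.

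In 45 of the 54 lists no member passed limma, where 0.510% of all genes tested passed. Their medians ran from -0.50 in 10 fat-cell genes to 0.72 in 11 eosinophil genes and 3.53 in 5 pancreas genes. Without ON 2, ON 3 and CT 4 the eosinophil median was -0.11 and the pancreas median -0.05, and below, the value without these libraries follows where a median moved by at least 0.1. B-lineage genes had a median of -0.03 (20 genes), marginal-zone B-cell genes 0.06 (13), MHC class II genes -0.19 (12), MHC class I genes -0.14 (15) and Fc receptor genes -0.01 (11). Type I interferon genes had a median of -0.02 (27 genes), the interferon-gamma axis -0.06 (25), inflammatory cytokines and chemokines -0.12 (18), NF-kappaB genes 0.01 (19) and nucleic acid sensors 0.09 (19). Without the 3 libraries the inflammatory median was -0.53, with Il1b passing, and the NF-kappaB median -0.10. Red pulp macrophage and iron genes had a median of -0.06 (21 genes), monocyte genes 0.06 (14), dendritic cell genes 0.04 (21), mast cell and basophil genes 0.10 (13), stroma -0.05 (22) and proliferation -0.19 (38). Without the 3 libraries monocyte genes were at -0.13, dendritic cell genes at -0.06, mast cell and basophil genes at -0.10 and proliferation at -0.05. The rest were regulatory T-cell and co-inhibition genes at 0.06 (17; -0.08 without the 3 libraries), clock genes at 0.19 (17), heat-shock genes at -0.01 (14), ER folding genes at -0.01 (23), leukotriene and prostaglandin enzymes at 0.10 (17), sterol genes at 0.07 (20) and microRNA machinery at 0.05 (17). By name pattern, heavy-chain V segments had a median of 0.24 (78), light-chain V segments -0.10 (109), T-cell receptor V segments -0.10 (47), histone genes -0.22 (29), small nucleolar RNAs -0.05 (47), their host genes -0.07 (13) and nuclear long noncoding RNAs 0.14 (6). Without the 3 libraries heavy-chain V segments and nuclear long noncoding RNAs were both at -0.01, histone genes at -0.38, small nucleolar RNAs at -0.23 and their host genes at -0.33.

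The libraries coded OS had the same stated treatment, and both codes were compared with the same saline libraries. Set directly against OS, 2 genes were higher in ON (0.0128% of those tested) and 27 lower (0.172%), with 1658 at an unadjusted p under 0.05. Of 32 immediate early genes, which cells switch on within minutes of a stimulus, 8 were lower in ON than in OS, and the median was -1.26. None of the 32 passed in a fit to ON and OS alone, with no filter, with a replicate block, or without any 1 of ON 1, ON 3, ON 4, ON 5, OS 2, OS 3 and OS 4, while 17 passed without ON 2 and 24 without OS 5. With 1 library left out the median was -1.60 to -1.05. Against saline, 0 of these 32 passed in ON and none had an unadjusted p under 0.05, with a median of 0.04, or -0.39 without ON 2, ON 3 and CT 4. Irf4, a transcription factor of plasma cell differentiation, had 15.7 ± 2.05 FPKM under saline, 18.1 ± 2.41 in ON and 31.7 ± 6.51 in OS (n = 6), and ON differed from OS by -0.76 ± 0.13 (limma adjusted p = 0.0202). That call ended in a fit to ON and OS alone (adjusted p = 0.235), with a replicate block (0.0505) and without ON 3, ON 4, ON 5, OS 2, OS 3 or OS 4 (at most 0.118). Of the 5 genes that rose and the 17 named genes that fell against saline, none differed between the codes by limma, with Taf4 at -0.03 ± 0.07 (adjusted p = 0.897) and Rpl38 at -0.67 ± 0.39 (adjusted p = 0.561). A p that misses the threshold does not show that the codes are alike. Against the same saline libraries, the 5 rises also passed limma in OS, with log2 differences of 0.37 to 0.86 (adjusted p of 0.000921 to 0.00905). The 17 named falls passed there too, except Rpl38, Rpl36, Rpl23, Ndufb1, Pet100, Uqcrb and Dnajc19 (adjusted p of 0.0675 to 0.163). Both comparisons share their controls and are not independent. The ribosomal list mean was -0.84 to -0.53 in ON and -0.93 to 0.02 in OS.

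**Figure D5:**
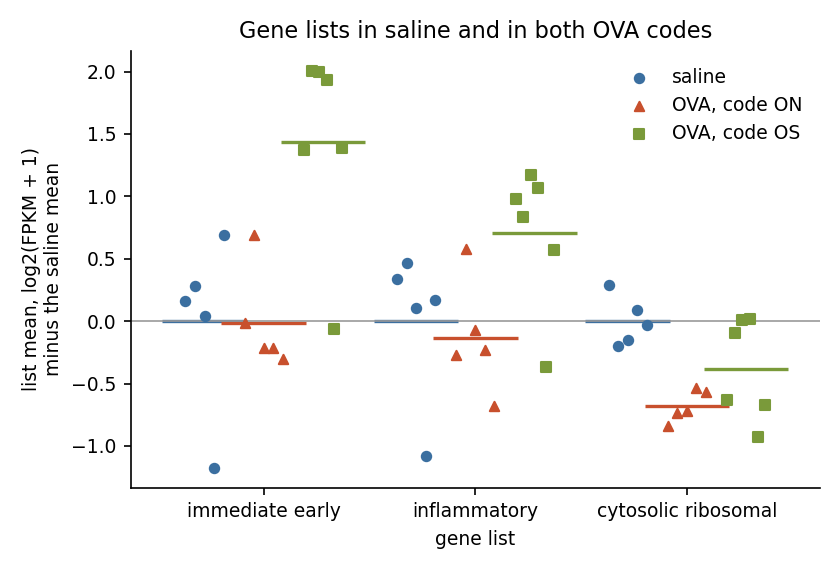
List means of log2(FPKM + 1) minus the saline mean for 3 gene lists, with 1 point per library and a bar at each group's mean, for saline (circles), OVA code ON (triangles) and OVA code OS (squares). For the immediate early list ON runs from -0.30 to 0.69 and OS from -0.07 to 2.01, and for the cytosolic ribosomal list 3 OS libraries lie among or below the ON libraries.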

How the data were processed

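Poly(A)-selected RNA of mouse spleen was sequenced, and the authors deposited 1 table of FPKM for 56392 genes in 26 libraries, with gene lengths and coordinates on a build it does not name. Per the submitters' processing notes the tools included HISAT2 2.0.5 (an aligner) and featureCounts 1.5.0-p3 (a read counter), though what each did is not said. FPKM times gene length gave whole multiples of 1 read in 100% of values (tolerance 0.05), and these recovered reads served for depth, shares and an alternative with limma voom. The deposited values divide by an effective library size, which was 0.712 of the reads in ON 2 and 0.802 in CT 4, so a library's FPKM depend on the authors' scaling.

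Genes with FPKM of at least 1 in at least 5 of 26 libraries were tested, 15672 in all, on the log2(FPKM + 1) scale. With limma 3.58.1 (R 4.3.3), a separate mean was fitted for each code over all 26 libraries with a variance trend, so that the codes share an estimate of the spread, and Benjamini-Hochberg adjustment ran over all genes. The fit was tested on simulated data first. Named genes were the 12 largest rises and the 12 largest falls that passed (predicted genes, pseudogenes and receptor segments left out), up to 4 passing and 2 abundant other members of each list, and the 6 smallest p of ON against OS, of which 1 is not reported here. Pseudogenes named are list members. The 54 lists, 43 by symbol and 11 by name pattern, matched 839 of 846 symbols. Members and lists were chosen with earlier results of these data known. Chil3 and Rplp1 are named as abundant members that did not pass. Sequences are from RefSeq (GRCm38.p6), and 10044 of the tested genes had a promoter there. The pyrimidine run was added after seeing the data. Replicate numbers are not stated to pair the libraries, and the main fit did not pair them.

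Alternatives were a pseudocount of 0.1, other filters, centring and scaling, fewer libraries, library weights, a replicate block, voom and a test against a log2 difference of 0.5. Figures were drawn with matplotlib.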

Additional observations from a re-analysis of the deposited data

Results flagged for a closer look

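Some libraries lay far from the other 4 of their group. Of 170 series of 5 values examined, 22 were flagged so, and chance flags about 1 in 20. CT 4 accounted for most. It was low for Sppl3 (6.24 FPKM, the others 8.80 to 9.80) and high for Rpl32 (1561 FPKM, the others 797 to 892). Among list means, in log2 from the saline mean, CT 4 was high for translation factors (0.49), erythroid genes (0.83) and proliferation (0.73). It was low for small nucleolar RNAs (-0.98), glucocorticoid response (-0.74), dendritic cells (-0.31), MHC class II (-0.40), MHC class I (-0.53), T lineage (-0.43), cytotoxic and NK genes (-0.51), regulatory T-cell genes (-0.42), inflammatory genes (-1.08) and NF-kappaB genes (-0.61). CT 1 was high for mitochondrial ribosomal genes (0.27) and nuclear oxidative phosphorylation genes (0.34), and CT 5 was high for Plk2 (5.85 FPKM, the others 2.17 to 2.65). Among the ON libraries, ON 2 was high for mt-Co2 (52.7 FPKM), ON 1 was low for Dnajc19 (4.34 FPKM) and for translation factors (-0.40), and ON 3 was high for immunoglobulin constant regions (0.45).

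Pancreatic genes took 31.3% of reads in ON 2 and 4.79% in ON 3, against at most 0.00335% under saline.

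Against the OS libraries, with the test of the difference itself, ON was lower for Rnd3 (log2 difference -0.84), Adm, the vasodilator adrenomedullin (-1.37), Zfand5, a zinc-finger protein that activates the proteasome (-0.72), Irf4 (-0.76) and Plk2, a stress-induced kinase (-1.21).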

How the results depend on the processing

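Of the 80 calls of ON against saline (7 higher, 73 lower), a fit to the saline and ON libraries alone gave 49 (1 and 48), no filter on low values 33 (2 and 31) and library weights 859 (243 and 616, or 71.7% lower against 91.3%). Median centring gave 118, 112 of them lower, and upper-quartile scaling 112, 16 of them higher. Without ON 2 and ON 3 there were 13 (0 and 13), and without CT 4 as well 16 (0 and 16). Leaving out 1 library gave 27 (without ON 3) to 103 (without CT 4) calls, 0 to 7 of them higher and 27 to 97 lower. A test against a log2 difference of 0.5 with limma called 0 in either direction, with 154 at an unadjusted p under 0.05, while voom called 65, of which 59 were among the 80. For ON against OS the 29 calls became 17 at a pseudocount of 0.1, 6 with no filter, 0 in a fit to ON and OS alone (1371 at an unadjusted p under 0.05), 119 without ON 2 and ON 3, 199 without these and CT 4 and 564 with library weights, and 3 to 260 with 1 library left out. The cause of these shifts was not tested, beyond the smaller number of libraries or the larger number of genes.

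Libraries with the same replicate number in ON and saline had deviations that correlated at -0.18 to 0.03, and 0 of 5 correlated best with their own number. With 5 libraries per group, some of them outlying, this cannot exclude pairing, and the labels state none. A replicate block gave 40 calls (1 higher, 39 lower), and in a fit to the 2 groups alone 1 call (0 and 1). For ON against OS both gave 3. Of the 54 list medians 30 lay on both sides of 0 over the alternatives, 20 of which were within 0.1 of 0 as reported. Depth limits genes near 1 FPKM.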
